A study of Mus musculus with 12 samples.

Results

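The genes examined were 10 of the 24525 gene rows of the count tables: Flrt1, Flrt2 and Flrt3, the latrophilins Adgrl1, Adgrl2 and Adgrl3, and the teneurins Tenm1, Tenm2, Tenm3 and Tenm4. They were taken by their symbols. Flrt2 and Flrt3 were selected on their RNA level in Ythdf2-/- against wild-type neurospheres, measured in the same RNA-seq libraries, since the study names them for it, so their difference between genotypes is described below without a test. Flrt1 is their paralog, latrophilins bind Flrt proteins, and teneurins bind latrophilins. The question was whether these 8 partners change with Flrt2 and Flrt3, by library and by genotype. Of the 10, 9 had enough reads to be among the 13112 genes tested, and Tenm1 did not.

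RNA-seq input libraries were available from 3 wild-type and 3 Ythdf2-/- neurosphere cultures, each input being fragmented mRNA kept aside before immunoprecipitation of N6-methyladenosine (m6A). Neurospheres are floating cultures of neural stem/progenitor cells (NSPCs), here from C57BL/6 forebrain at E14.5, at passage 1, grown with 20 ng/ml EGF and 10 ng/ml bFGF and given no other treatment. The Ythdf2-/- embryos came from intercrosses of heterozygotes in which a ubiquitous Cre had deleted the segment from upstream of the transcription start into intron 1, so the deletion was carried by every cell of the embryo and not only by NSPCs. Ythdf2 is the reader protein that binds m6A and speeds decay of marked mRNA. The 6 m6A-IP libraries were not analysed here, and the methylation of these mRNAs was therefore not measured.

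Flrt proteins are membrane proteins with leucine-rich repeats and a fibronectin domain. On neighbouring cells they bind latrophilins, which are adhesion G protein-coupled receptors, and Unc5 receptors, which can turn the contact into repulsion of a migrating neuron or growing axon. Teneurins are large transmembrane proteins that bind latrophilins through another surface, and Flrt, latrophilin and teneurin can meet at a single contact. In the developing forebrain these proteins are known for guiding radially migrating neurons and axons, and later for specifying synapses.

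All positions are on GRCm38. Flrt2 lies on chromosome 12 (95692226 to 95785215, plus strand). Flrt3 (chromosome 2, 140658198 to 140671476, minus strand) lies wholly inside Macrod2 on the opposite strand, and Flrt1 (chromosome 19, 7092001 to 7105729, minus strand) lies inside Macrod1 in the same way. No exon base of either Flrt gene overlaps an exon of its host. The latrophilin genes are on chromosome 8 (Adgrl1, 83900098 to 83941954, plus strand), chromosome 3 (Adgrl2, 148815586 to 148954635, minus strand) and chromosome 5 (Adgrl3, 81020571 to 81825133, plus strand). The teneurin genes are on chromosome X (Tenm1, 42532391 to 43274784, minus strand), chromosome 11 (Tenm2, 36006656 to 36944241, minus strand), chromosome 8 (Tenm3, 48225665 to 48674690, minus strand) and chromosome 7 (Tenm4, 96171244 to 96911093, plus strand). The sequences just upstream of Flrt2 and Flrt3 are shown because these genes were higher together in Ythdf2-/- cultures. They are the 250 bases before the RefSeq start of each gene, chr12:95691976-95692225 on the plus strand and chr2:140671477-140671726 on the minus strand, written 5′ to 3′ with each CG dinucleotide in capitals.
Flrt2 upstream: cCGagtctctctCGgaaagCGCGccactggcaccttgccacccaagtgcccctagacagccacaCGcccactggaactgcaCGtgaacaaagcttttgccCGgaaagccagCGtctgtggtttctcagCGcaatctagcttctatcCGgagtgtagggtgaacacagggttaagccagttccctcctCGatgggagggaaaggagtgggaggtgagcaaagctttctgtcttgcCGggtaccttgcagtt
Flrt3 upstream: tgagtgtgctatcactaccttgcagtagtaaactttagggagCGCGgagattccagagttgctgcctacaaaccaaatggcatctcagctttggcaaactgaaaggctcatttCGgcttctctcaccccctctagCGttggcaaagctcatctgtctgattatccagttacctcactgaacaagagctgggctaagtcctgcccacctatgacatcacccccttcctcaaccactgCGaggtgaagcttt

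The Flrt2 segment held 12 CG dinucleotides and was 57.2% GC, and the Flrt3 segment held 5 and was 50.0% GC, against medians of 6 and 52.4% over 32851 mouse promoter segments of the same length. Neither held a GC box (GGGCGG, searched on both strands), which 32.7% of all segments held. Neither held the CCAAT box, also searched on both strands and present in 33.8% of segments. The letters TATAAA, searched on the strand of the gene and present in 7.6% of segments, were also not in these windows. Segments were on hand for 9 of the 10 genes, all but Flrt1.

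The letters GGACT are the most frequent form of the m6A consensus, so they were located in the longest RefSeq mRNA of each gene. The Flrt3 mRNA (4537 bases) held 10, or 2.20 per kb, a density at the 91.8 percentile of the genes tested, whose median was 1.05 per kb. In Flrt2 (7099 bases) there were 7, or 0.986 per kb, at the 46.3 percentile. Within 200 bases of the stop codon, where m6A is commonly found, 40.5% of coding genes tested held the letters. Neither Flrt2 nor Flrt3 did, nor did Adgrl2 or Tenm2, whereas Flrt1, Adgrl1, Adgrl3, Tenm1, Tenm3 and Tenm4 did. Beyond that distance, after the stop codon, lay 5 of the 7 Flrt2 and 4 of the 10 Flrt3 occurrences. The windows below show the coding occurrences of Flrt2 and Flrt3 beside the near-stop occurrences of Flrt1 and Adgrl3, with GGACT in capitals and 10 bases on each side. A match to these letters is a feature of the sequence and was not checked against methylation here. For Flrt2, the study reported raised mRNA and m6A levels in Ythdf2-/- neurospheres. It also reported Ythdf2 binding and slower mRNA decay for the candidate genes it verified, Flrt2 among them.
Flrt2 coding, chr12:95778952-95778976, plus strand: catttccctgGGACTctacttacaa
Flrt3 coding, chr2:140661658-140661682, minus strand: ttcctcatcgGGACTaaaattgggc
Flrt3 coding, chr2:140661343-140661367, minus strand: aataacataaGGACTatcacctatg
Flrt3 coding, chr2:140661169-140661193, minus strand: ggcttgcccaGGACTattgaggaat
Flrt1 near stop, chr19:7095315-7095339, minus strand: ccgtggcccaGGACTgcagatgcta
Flrt1 near stop, chr19:7095160-7095184, minus strand: tccctgatgtGGACTactcctacac
Adgrl3 near stop, chr5:81795013-81795037, plus strand: tctccggaggGGACTtccaaaggac
Adgrl3 near stop, chr5:81795081-81795105, plus strand: gcaaccaacaGGACTgctaacacct

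The 6 libraries held 11029827 to 13185778 counted reads. Ythdf2 itself was at 71.9, 73.3 and 91.4 CPM (reads per 1e6 counted reads, scaled between libraries by TMM factors) in the wild-type cultures and at 11.7, 14.7 and 11.1 in the Ythdf2-/- cultures, which matched the labels (log2 fold change -2.66, SE 0.18, adjusted p = 0.0547 by edgeR with all libraries and 0.0203 without wild-type replicate 3). Wild-type replicate 3 stood apart from the other 5 libraries. It lay at 91.0 on the first principal component, which held 74.2% of the variance, while the others lay between -30.6 and -6.04. Wild-type replicates 1 and 2 were closer to each other than any other pair of the same genotype, with a chi-square per degree of freedom of 4.57 against 22.5 to 140 for the other pairs. Reads on Y-linked genes were present in wild-type replicates 1 and 2 and in Ythdf2-/- replicate 3 (1111, 1638 and 2147 reads) and nearly absent from the other 3 libraries (0 or 1 read), so that genotype could be compared within each of these strata only with a single library on one side. Because each of these facts touches the genes below, values are given with and without wild-type replicate 3.

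The cultures carried the labelled NSPC markers in every library, with all 8 neural progenitor markers (among them Nes, Sox2 and Fabp7) above the filter. Their summed level was 3808 CPM in wild-type replicate 3 and 5130 to 7033 in the other libraries. Of the 8, Nes, Vim and Fabp7 were lowest in that library, while Sox2, Pax6, Hes5 and Sox1 were highest there. Neuronal markers summed to 2094 CPM in wild-type replicate 3 and to 1124 to 1356 in the others, and 7 of the 10 were highest in that library, Dcx with 3441 reads against 98 to 172. Slc17a6, a marker of glutamatergic neurons, was at 0 in all 6. Astrocyte markers summed to 6475 against 1220 to 2767 CPM, with 3 of the 6 highest in wild-type replicate 3. Of 7 oligodendrocyte lineage markers, 3 were highest in that library (Pdgfra, Sox10 and Mbp, the last with 6262 reads against 15 to 116) and 3 lowest (Olig1, Olig2 and Cspg4). Endothelial and microglial markers summed to at most 2.21 and 1.54 CPM in any library, and mesenchymal markers to 32.2 CPM in wild-type replicate 3 and 0.889 to 4.35 elsewhere. A few markers also separated the genotypes. Gfap, an astrocyte intermediate filament, had 5103, 8190 and 33286 reads in wild type and 1494, 1185 and 69 in Ythdf2-/- cultures, the only 1 of the 6 astrocyte markers whose groups did not overlap. The groups also did not overlap for 0 of 8 neural progenitor markers, 1 of 10 neuronal markers (Stmn2, lower in Ythdf2-/- cultures), 3 of 7 oligodendrocyte lineage markers (Olig1 and Cspg4 higher, Mbp lower), 0 of 5 endothelial, 0 of 6 microglial and 1 of 5 mesenchymal markers (Col3a1, at 0 to 3 reads). Over all genes tested, 4.92% were lower and 5.24% higher in this way. The part of these markers in the results below was not tested. In bulk RNA, fewer cells that express a gene and less of its RNA per cell cannot be told apart.

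Compared per kilobase of exon, latrophilins were the most abundant of the 3 families in every library, and teneurins the least in 5 of 6. Averaged over the 6 libraries, Adgrl1 was at 21.1 CPM per kb and Adgrl2 at 18.7, followed by Adgrl3 at 7.90, Flrt2 at 7.08, Tenm3 at 4.40 and Flrt3 at 3.84. Tenm4 (1.27), Tenm2 (0.877) and Flrt1 (0.801) were lower, and Tenm1, a teneurin gene on the X chromosome, was represented by a single read in wild-type replicate 1 and by 0 reads in the other 5 libraries, where a count of 0 allows a level of up to 0.222 to 0.275 CPM (3 reads per library, counting error only). Neighbours in this order overlapped over the libraries, with 1 exception before Tenm1. The lowest Flrt3 value, 2.66 CPM per kb, was above the highest Tenm4 value, 1.99. Adgrl1 and Adgrl2 changed places between libraries, and Adgrl2 was the higher of the pair in 4 of 6. The level of Adgrl3 depends on its annotated length. It was 16.6 CPM per kb with the length in the authors' gene table, which left its place in the order as it was.

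Flrt2, which acts as an adhesion molecule and as a repulsive ligand for Unc5 receptors, was at 38.1, 35.2 and 23.5 CPM in wild-type replicates 1 to 3 (445, 461 and 257 reads). In the Ythdf2-/- libraries it was at 59.1, 93.9 and 51.9 CPM (693, 1268 and 645 reads). The groups did not overlap, although the gap between the highest wild-type and the lowest Ythdf2-/- library was smaller than the spread within the Ythdf2-/- group. Group means (± SD over 3 cultures) were 32.3 ± 7.71 and 68.3 ± 22.5 CPM, and the edgeR fit gave a log2 fold change of 1.08 (SE 0.29). Without wild-type replicate 3, which had the lowest value, it was 0.90 (SE 0.27). Among libraries with Y-linked reads the log2 ratio was 0.50, and among those without them it was 1.70.

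Flrt3, the paralog that pairs with latrophilins at synapses and with Robo1 in thalamic axons, was at 15.2, 13.1 and 12.1 CPM in the wild-type libraries (178, 172 and 132 reads). It was at 19.0, 25.8 and 19.1 CPM in the Ythdf2-/- libraries (223, 349 and 238 reads). Its groups did not overlap either, and as for Flrt2 the highest library was Ythdf2-/- replicate 2 and the lowest was wild-type replicate 3. Group means were 13.5 ± 1.61 and 21.3 ± 3.90 CPM (SD, n = 3), and the fitted log2 fold change was 0.66 (SE 0.20), and 0.59 (SE 0.19) without wild-type replicate 3. The log2 ratio was 0.43 among libraries with Y-linked reads and 0.89 among those without.

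The third paralog, Flrt1, was at 2.23, 1.98 and 14.003 CPM in the wild-type libraries (26, 26 and 153 reads) and at 3.50, 1.999 and 4.51 CPM in the Ythdf2-/- libraries (41, 27 and 56 reads). Only wild-type replicate 3 was high, 6.65 times the mean of the other 2 wild-type libraries, and the genotypes overlapped. The log2 fold change was -0.86 (SE 0.83, 95% interval -2.87 to 1.16, edgeR adjusted p = 0.999, with Benjamini-Hochberg adjustment over every gene tested) with all libraries and 0.66 (SE 0.41, edgeR adjusted p = 0.453) without wild-type replicate 3.

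**Figure D1:**
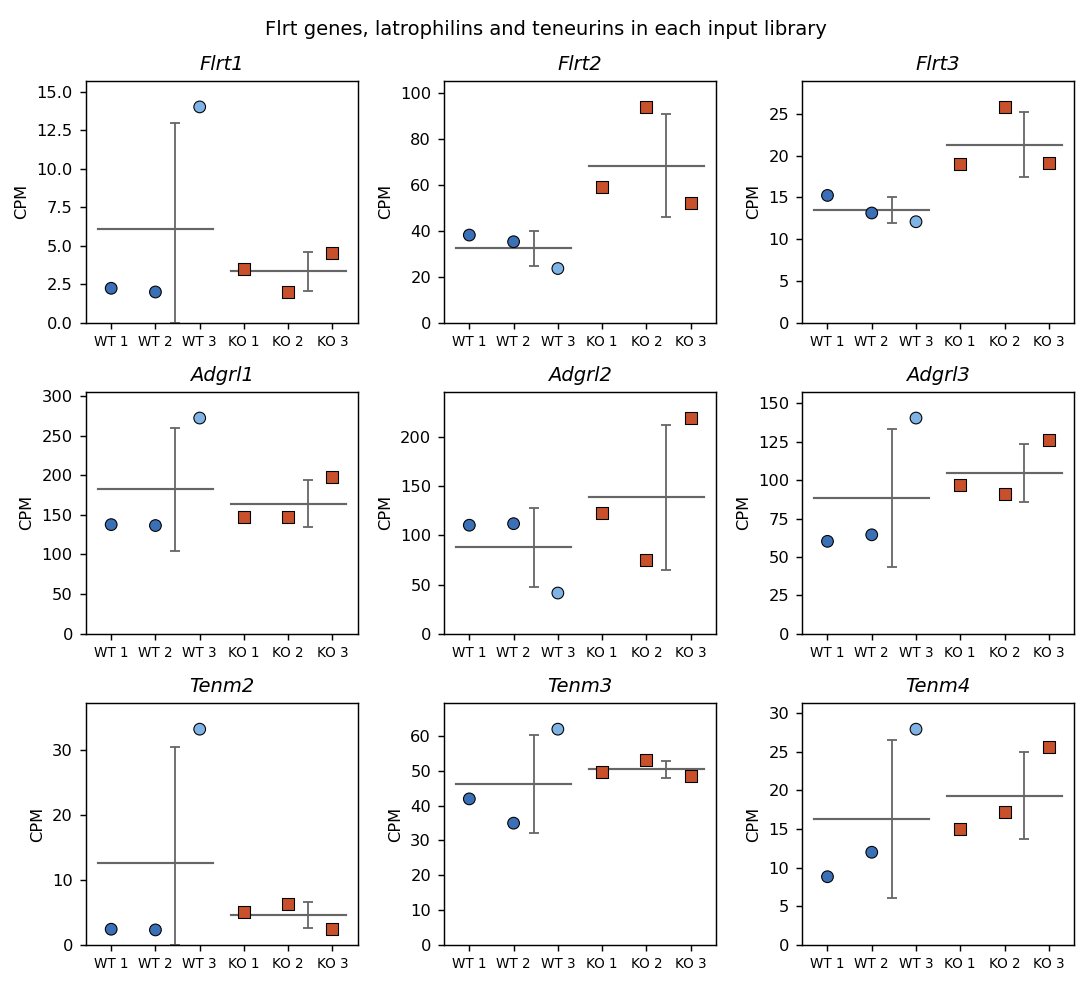
CPM of each tested gene (vertical axis, linear from 0) in the 3 wild-type (WT, circles; replicate 3 in light blue) and 3 Ythdf2-/- (KO, squares) input libraries, with horizontal lines for group means and bars for SD, drawn no lower than 0. Flrt2 and Flrt3, which were selected on this contrast, are the genes in which all 3 KO libraries lie above all 3 WT libraries. WT 3 is the highest or the lowest of the 6 libraries in every panel.

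The host genes showed no matching difference. Macrod1, around Flrt1, was at 9.29 ± 1.70 CPM in wild type and 9.13 ± 1.02 in Ythdf2-/- cultures (SD, n = 3 each; log2 fold change -0.02, SE 0.23, edgeR adjusted p = 0.999). Macrod2, around Flrt3, was at 12.5 ± 1.49 and 11.3 ± 0.0965 CPM (log2 fold change -0.14, SE 0.18, edgeR adjusted p = 0.999). Because the exons do not overlap, spliced reads of a nested gene and its host are told apart by position, and only unspliced host RNA that crosses a nested exon would need strand, whose setting was not given in the sources used here.

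Summed per kilobase, the Flrt family was at 9.10, 8.19 and 8.36 CPM per kb in wild type and at 13.1, 19.3 and 12.3 in Ythdf2-/- cultures. Most of each total was Flrt2 and Flrt3, which were selected on this contrast, so the difference in the totals restates that selection. Flrt1, the paralog not selected in this way, overlapped between genotypes. The wild-type totals were close although their make-up was not. Flrt1 was 28.5% of the total in wild-type replicate 3 and 1.77% to 6.24% in the other 5 libraries, while Flrt2 was 39.6% there and 58.9% to 68.7% elsewhere. Flrt3 kept 29.6% to 36.9% in all 6.

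Latrophilins are the receptors that Flrt proteins and teneurins share. Adgrl1 was at 138, 136 and 272 CPM in the wild-type libraries and at 147, 147 and 198 CPM in the Ythdf2-/- libraries. Its wild-type range enclosed all Ythdf2-/- values, and the log2 fold change was -0.15 (SE 0.31, 95% interval -0.90 to 0.61, edgeR adjusted p = 0.999). Without wild-type replicate 3 all Ythdf2-/- libraries were above the remaining wild-type pair and the value was 0.26 (SE 0.15, edgeR adjusted p = 0.434). In the annotation, 1107 exon bases of Adgrl1 overlap the antisense gene Gm10644, which is no row of the count table.

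Adgrl2, a known partner of Tenm3 in hippocampal wiring, was at 110, 112 and 41.4 CPM in wild type and at 123, 74.5 and 219 CPM in Ythdf2-/- cultures. Wild-type replicate 3 was its lowest library, whereas it was the highest for both paralogs. The log2 fold change was 0.66 (SE 0.51, 95% interval -0.58 to 1.90, edgeR adjusted p = 0.999), as large as that of Flrt3 but with overlapping groups, and 0.32 (SE 0.42, edgeR adjusted p = 0.735) without wild-type replicate 3. With a term for Y-linked reads in the fit it was 1.115 (SE 0.22, edgeR adjusted p = 0.240).

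Adgrl3, a receptor of Flrt3 known for its place at excitatory synapses, was at 60.2, 64.4 and 140 CPM in wild type. In the Ythdf2-/- libraries it was at 96.7, 91.1 and 126 CPM. Every Ythdf2-/- library was above wild-type replicates 1 and 2 and below replicate 3. The log2 fold change was 0.25 (SE 0.36, 95% interval -0.62 to 1.11, edgeR adjusted p = 0.999) with all libraries. Without wild-type replicate 3 it was 0.75 (SE 0.16, 95% interval 0.36 to 1.14, edgeR adjusted p = 0.170), the lowest adjusted p of the partners in that fit.

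Latrophilin totals were 40.0, 40.4 and 51.6 CPM per kb in wild type and 46.2, 37.8 and 70.8 in Ythdf2-/- cultures, and the genotypes overlapped. Adgrl1 made up 64.5% of the total in wild-type replicate 3 against 34.1% to 47.7% in the other libraries, and Adgrl2 13.3% against 32.6% to 51.2%. Ythdf2-/- replicate 3 was at the other end, with the highest share of Adgrl2.

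Of the teneurins, Tenm3, known for matching pre- and postsynaptic partners in visual and hippocampal circuits, had the most reads. It was at 41.9, 35.0 and 61.96 CPM in wild type and at 49.6, 53.1 and 48.5 CPM in Ythdf2-/- cultures. The Ythdf2-/- values were close together and lay inside the wild-type range, with a log2 fold change of 0.12 (SE 0.23, 95% interval -0.42 to 0.67, edgeR adjusted p = 0.999). It was 0.39 (SE 0.12, edgeR adjusted p = 0.226) without wild-type replicate 3 and -0.041 without wild-type replicate 2.

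Tenm4, the teneurin linked to oligodendrocyte differentiation and to tremor in mutants, was at 8.81, 11.98 and 27.9 CPM in wild type and at 15.0, 17.3 and 25.7 CPM in Ythdf2-/- cultures. As for Adgrl3, each Ythdf2-/- value lay above wild-type replicates 1 and 2 and below replicate 3. The log2 fold change was 0.25 (SE 0.47, 95% interval -0.88 to 1.38, edgeR adjusted p = 0.999). It was 0.89 (SE 0.28, edgeR adjusted p = 0.234) without wild-type replicate 3, -0.043 without wild-type replicate 1 and -0.0068 without Ythdf2-/- replicate 3.

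Tenm2, a high-affinity ligand of Adgrl1, had 28, 30 and 362 reads in the wild-type libraries and 59, 84 and 30 in the Ythdf2-/- libraries. In CPM these were 2.40, 2.29 and 33.1 against 5.03, 6.22 and 2.41. Wild-type replicate 3 was 14.1 times the mean of the other wild-type libraries, the largest such ratio of the 9 genes. With it the log2 fold change was -1.46 (SE 1.11, 95% interval -4.14 to 1.22, edgeR adjusted p = 0.999), and without it 0.96 (SE 0.44, edgeR adjusted p = 0.336). Teneurin totals were 4.70, 4.27 and 11.02 CPM per kb in wild type and 6.10, 6.70 and 6.49 in Ythdf2-/- cultures, with Tenm2 making up 30.7% of the total in wild-type replicate 3 and 3.80% to 9.49% in the others.

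**Figure D2:**
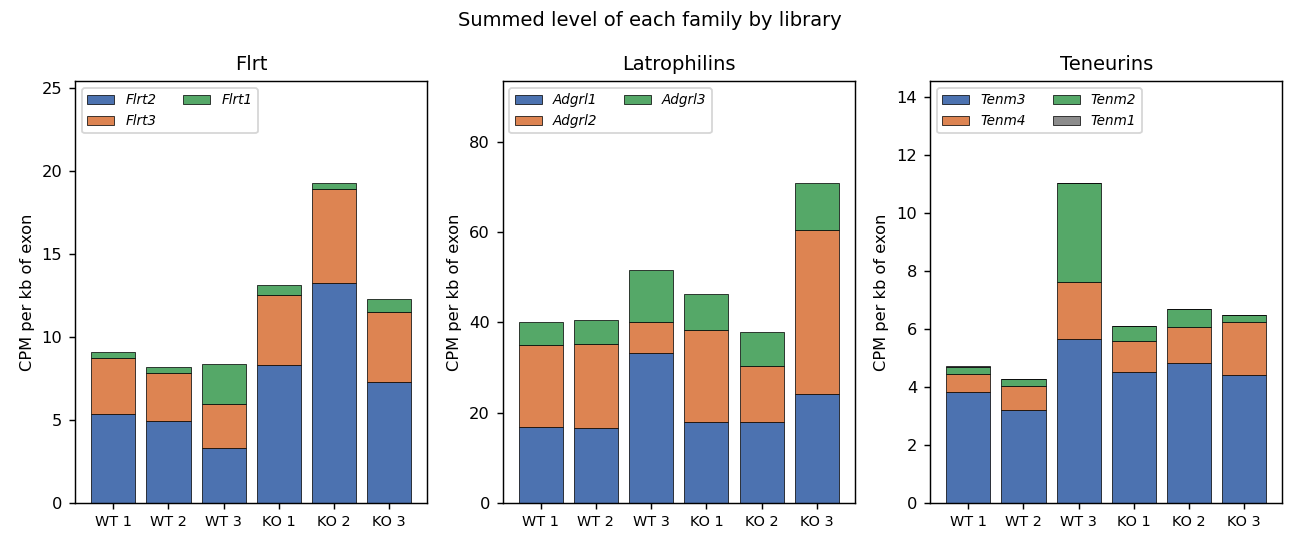
Summed level of each family (vertical axis, CPM per kb of exon, from 0) in the 3 wild-type (WT) and 3 Ythdf2-/- (KO) libraries, with the genes of each family stacked. The Flrt totals of KO libraries are 12.3 to 19.3 against 8.19 to 9.10 in WT, and consist mostly of Flrt2 and Flrt3, which were selected on this contrast. WT 3 differs from WT 1 and WT 2 in its shares of Flrt1, Adgrl2 and Tenm2.

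Over the partners as a group, 0 of the 7 that were tested (Flrt1, the 3 latrophilins and 3 teneurins) passed an adjusted p of 0.05 in edgeR, where 0 of 13112 genes did (0%), and 0 of the 7 had an unadjusted p under 0.05, where 3.63% of genes did. DESeq2 called 0 of the 6 of these partners to which it gave an adjusted p, where it called 88 genes in all (0.606%), and 0 of the 6 had an unadjusted p under 0.05, where 6.76% of genes did. It gave Tenm2 no p, so that gene could not be called there. Limma with sample quality weights called 0 of the 7, where it called 151 genes (1.15%), and 3 of the 7 were higher at an unadjusted p under 0.05, where 14.7% of genes were. Its lowest adjusted p among them was 0.0514 (Adgrl3). The direction of the partners also differed between these fits. In edgeR with all libraries, 4 of the 7 were higher and 3 lower in Ythdf2-/- cultures, with a median log2 fold change of 0.12 beside -0.01 over all genes tested. With quality weights, where wild-type replicate 3 had a weight of 0.0957, 7 of the 7 were higher (50.2% of all genes), with a median of 0.66. The edgeR intervals with all libraries were wide. A log2 fold change of 1.08, the size seen for Flrt2, lies inside the 95% interval of Flrt1, Adgrl2, Adgrl3, Tenm2 and Tenm4 and outside that of Adgrl1 and Tenm3. The size seen for Flrt3, 0.662, also lies inside the interval of Tenm3 (upper end 0.670), and outside only that of Adgrl1 (upper end 0.606). Both sizes come from genes selected on this contrast.

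Which genes had non-overlapping groups turned on wild-type replicate 3. With all libraries, all 3 Ythdf2-/- values were above all 3 wild-type values in 2 of the 10 genes, Flrt2 and Flrt3, which had been selected on this contrast, and in 5.24% of genes tested. Without wild-type replicate 3, this held for 7 of the 10 genes, and for 5 of the 8 partners (Adgrl1, Adgrl3, Tenm2, Tenm3 and Tenm4), where 18.8% of genes did so. For Tenm2 this was a near tie, with Ythdf2-/- replicate 3 at 2.41 CPM and wild-type replicate 1 at 2.40 (30 and 28 reads), and on CPM without TMM factors it overlapped, which left 4 of the 8 partners and 6 of the 10 genes. In the edgeR fit without that library 7 of the 7 tested partners had a log2 fold change above 0, as did 51.7% of all genes, and their median was 0.66 beside 0.01 over all genes. At an unadjusted p under 0.05, 3 partners were higher (Adgrl3, Tenm3 and Tenm4), where 8.03% of all genes were. At an adjusted p of 0.05, 0 of the partners were called, where 0.0151% of genes were. The wild-type spread in this fit rests on replicates 1 and 2, the closest pair of one genotype. Both held Y-linked reads, whereas among the Ythdf2-/- libraries only replicate 3 did, so genotype and Y-linked reads were partly confounded in this fit.

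**Figure D3:**
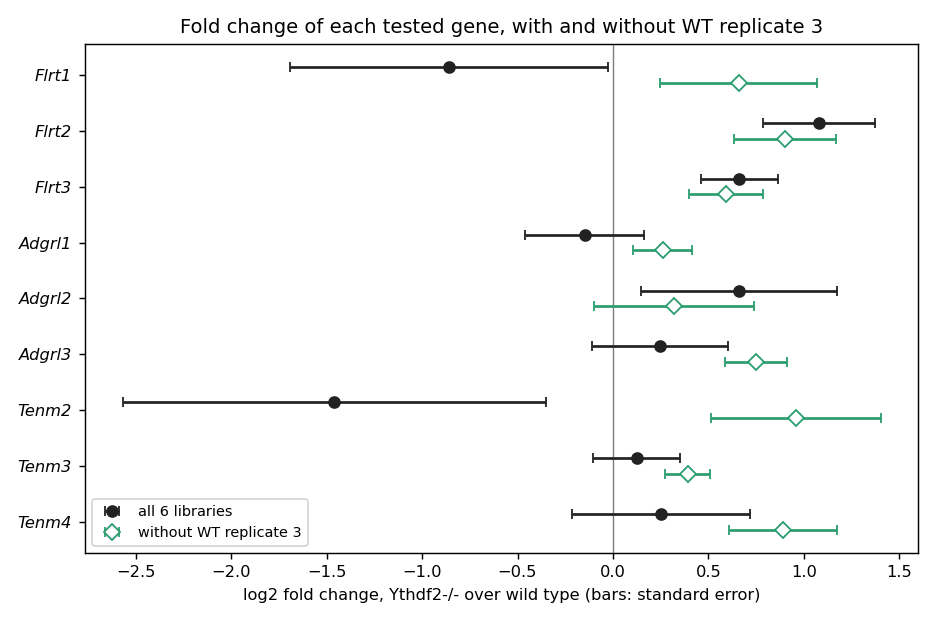
Log2 fold change of Ythdf2-/- over wild type (horizontal axis) for the 9 tested genes, with all 6 libraries (filled circles) and without wild-type replicate 3 (open diamonds), bars giving the standard error. Flrt2 and Flrt3, which were selected on this contrast, lie between 0.59 and 1.08 in both fits, while Flrt1, Adgrl1 and Tenm2 move from below to above 0.

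For each of the 9 tested genes, wild-type replicate 3 was an extreme of the 6 libraries. It was highest for Flrt1, Adgrl1, Adgrl3, Tenm2, Tenm3 and Tenm4 and lowest for Flrt2, Flrt3 and Adgrl2. Over all genes tested it was highest for 33.8% and lowest for 34.4%. The summed neuronal and astrocyte markers were higher in the same library, with 7 of 10 and 3 of 6 markers at their highest there. Of 7 oligodendrocyte lineage markers, 3 were highest and 3 lowest there. Summed neural progenitor markers were lowest there, although 4 of 8 were at their highest and 3 at their lowest. The part of these markers in these values was not tested. Within the strata of Y-linked reads, Ythdf2-/- replicate 3 was above the mean of wild-type replicates 1 and 2 for 7 of the 7 tested partners (48.4% of all genes), and the mean of Ythdf2-/- replicates 1 and 2 was above wild-type replicate 3 for 1 of the 7, Adgrl2 (50.9% of all genes). Flrt2 and Flrt3, selected on the genotype contrast, were higher in both strata.

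**Figure D4:**
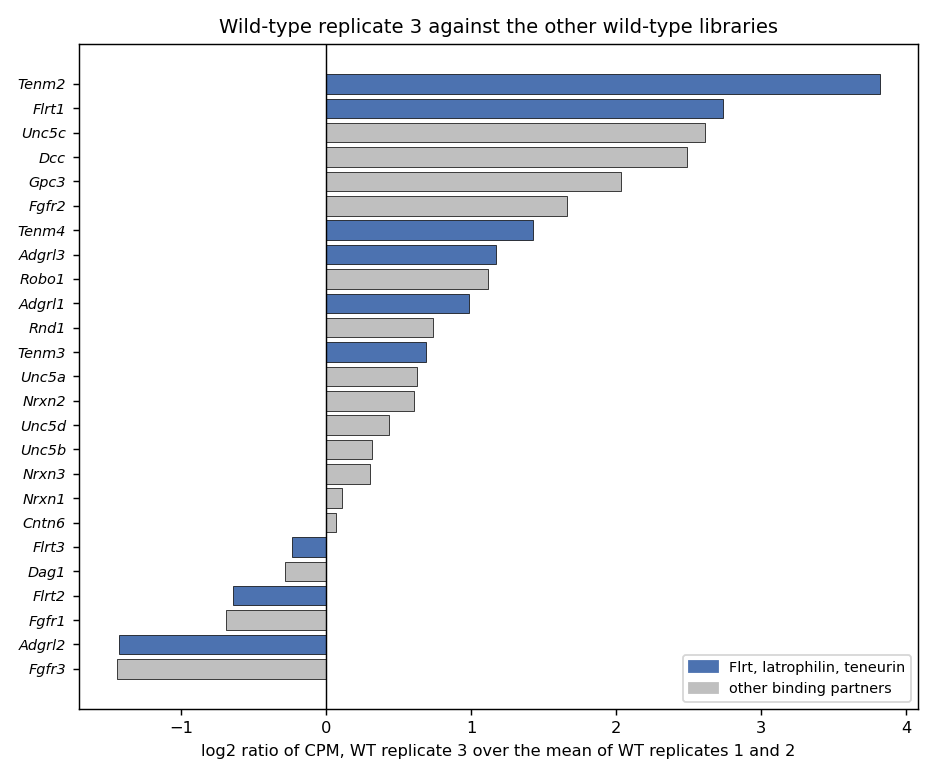
Log2 ratio of CPM in wild-type replicate 3 over the mean of wild-type replicates 1 and 2 (horizontal axis) for the 9 tested Flrt, latrophilin and teneurin genes (blue) and 16 other binding partners (grey). Tenm2 and Flrt1 have the largest ratios (14.1 and 6.65 as linear ratios), and Adgrl2 is near the bottom (0.372).

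A list of 16 other proteins known to bind Flrt proteins, latrophilins or teneurins covered Unc5 receptors, Fgf receptors, Robo1, Rnd1, Dcc, neurexins, Cntn6, Gpc3 and Dag1, and all 16 were tested. The study chose 1 of them, Nrxn3, on these libraries, so it is described and left out of the counts against all genes. Of the other 15, 0 passed an adjusted p of 0.05 in edgeR and 1 (Unc5b) had an unadjusted p under 0.05, where 3.63% of genes did. There were 7 higher and 8 lower in Ythdf2-/- cultures, where 48.1% of all genes were higher, with a median log2 fold change of -0.033 beside -0.011 over all genes. Unc5b, a netrin and Flrt receptor, was at 15.1, 15.0 and 18.8 CPM in wild type and at 7.33, 7.55 and 8.13 CPM in Ythdf2-/- cultures. The groups were well apart, and the log2 fold change was -1.08 (SE 0.19, 95% interval -1.54 to -0.63) with an edgeR adjusted p of 0.999. DESeq2 gave an adjusted p of 4.03e-05 and limma with sample quality weights gave 0.0346, so the call depended on the test.

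Nrxn3, a presynaptic latrophilin partner that the study names, was at 27.3, 29.0 and 34.8 CPM in wild type and at 48.4, 33.2 and 62.4 CPM in Ythdf2-/- cultures. Ythdf2-/- replicate 2 lay just under wild-type replicate 3, so the groups overlapped, and the log2 fold change was 0.66 (SE 0.25), a description like those of Flrt2 and Flrt3 since the study chose the gene on these libraries.

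Leaving out Nrxn3, 0 of the 15 had all Ythdf2-/- libraries above all wild-type libraries, where 5.24% of genes tested did. Another 2 had them below, Unc5b and Cntn6, where 4.92% of genes did. Without wild-type replicate 3 and leaving out Nrxn3, 5 of the 15 were above (Fgfr2, Robo1, Rnd1, Nrxn2 and Gpc3) and Unc5b and Cntn6 stayed below, where 18.8% of genes were above and 20.1% below. In that fit 12 of the 15 had a log2 fold change above 0, where 51.7% of all genes did, and the median was 0.43. Unc5c and Dcc, receptors of netrin, moved most between the fits. Dcc was at 199 CPM in wild-type replicate 3 and at 31.5 to 98.4 in the other libraries, and its log2 fold change went from -0.73 (SE 0.83) to 0.62 (SE 0.53).

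**Figure D5:**
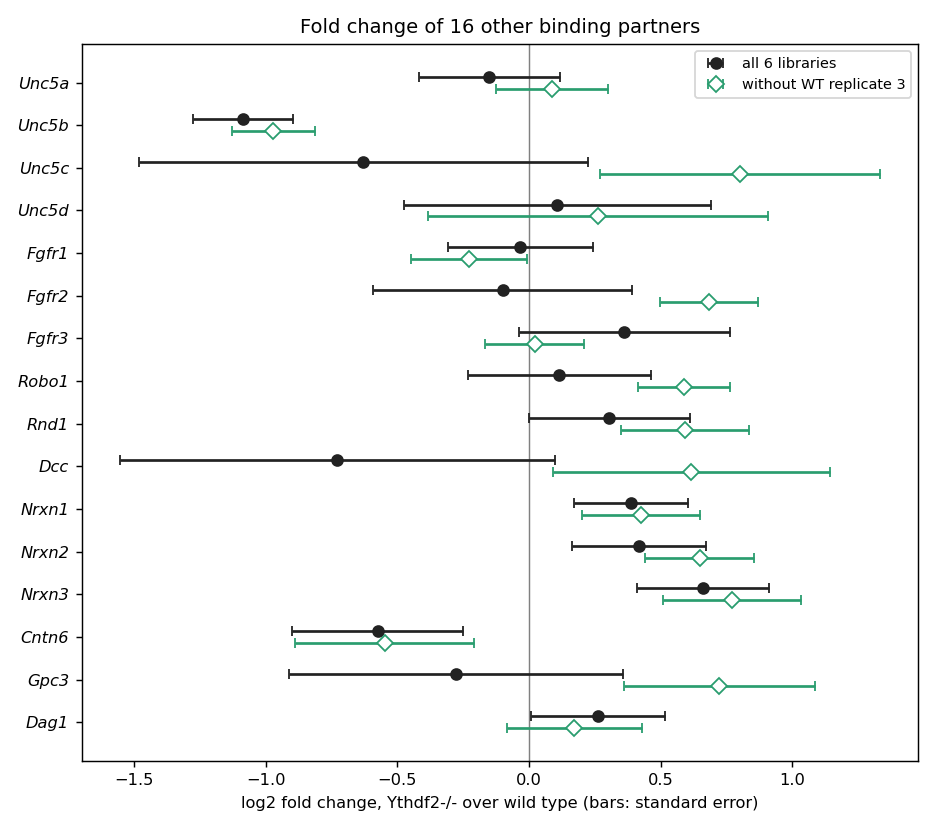
Log2 fold change of Ythdf2-/- over wild type (horizontal axis) for 16 other binding partners, with all 6 libraries (filled circles) and without wild-type replicate 3 (open diamonds), bars giving the standard error. Unc5b is below 0 in both fits (-1.08 and -0.97), and Unc5a, Unc5c, Dcc, Fgfr2 and Gpc3 change sign.

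Profiles over the 6 libraries were compared as the root-mean-square difference of mean-centred log2 CPM, as a description over 3 libraries of each genotype. Nearest to Flrt2 were Znrd1as (0.162), BB218582 (0.169) and Hdhd3 (0.173), and Flrt3 ranked 25 from Flrt2 among all genes at 0.278, while in the other direction Flrt2 ranked 564 from Flrt3. Both genes were selected on the genotype contrast in these libraries. Their closeness, and the greater distance of partners not selected in this way, were therefore partly fixed in advance. Closest to Flrt3 were Amdhd2 (0.0961), Nudt18 (0.0999) and Tstd3 (0.106). The nearest partner was Tenm3, at 0.668 from Flrt2 and 0.405 from Flrt3, but its ranks among all genes were 5957 and 4285, and it was highest in wild-type replicate 3, the lowest library of both Flrt genes. The most distant was Tenm2, at 1.65 and 1.46.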

How the data were processed

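Reads of stranded libraries were aligned by TopHat on mm10, and the authors deposited, per library, the raw count of each gene symbol. Their processing notes also name featureCounts, Bowtie2 2.2.9 and RSEM 1.2.15, and neither the counting strand nor the handling of multi-mapping reads is given in the sources used here. The authors also deposited expected counts, which summed to 2.09% of the raw counts (0 to 10 per library for the 10 genes) and gave no value in the report. FPKM and TPM columns were not used.

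From the raw counts, genes kept by filterByExpr were tested with edgeR 4.0.16 (TMM, robust quasi-likelihood test, genotype as only term, Benjamini-Hochberg adjustment over 13112 genes) in R 4.3.3. DESeq2 1.42.0 and limma 3.58.1 (voom with sample quality weights) were alternatives, and the code was tested on simulated data. Log2 CPM profiles used a prior count of 2. Levels per kb used merged RefSeq exons (GRCm38) of the transcripts named in the deposited tables, and upstream sequences are RefSeq's. Depth was 11029827 to 13185778 counts per library.

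The genes and lists were chosen with earlier results of these data known. A single gene of the marker lists was left out and is not reported here. Named genes were the 10, Ythdf2, the host genes, Nrxn3 and listed partners with an unadjusted p under 0.05, and the 3 nearest profiles for Flrt2 and for Flrt3. Unc5c, Dcc, Cntn6, the other listed partners and single markers were named after their values were seen. The study describes its libraries as biological replicates, and p-values measure only the spread between these cultures. The 95% intervals come from the fits and reflect the spread between cultures, whereas the limit that a count of 0 allows covers counting error only.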

Additional observations from a re-analysis of the deposited data

How the results depend on the processing

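Over 13 alternative fits (other size factors, DESeq2, 2 other filters, the replicate number as a block, sample quality weights, a term for Y-linked reads, and each library left out in turn), 0 of the partners passed an adjusted p of 0.05 (DESeq2 gave Tenm2 none). Adgrl2 and Adgrl3 stayed above 0 in all 13. So did Flrt2 and Flrt3, but they were selected on this contrast and their groups did not overlap. Leaving out a library could therefore hardly have changed their sign. Flrt1, Adgrl1 and Tenm2 turned from below to above 0 without wild-type replicate 3 (0.66, 0.26 and 0.96) and with quality weights (0.69, 0.19 and 0.85), where that library had a weight of 0.0957. Tenm3 was at -0.041 without wild-type replicate 2, and Tenm4 at -0.043 without wild-type replicate 1 and -0.0068 without Ythdf2-/- replicate 3. With a library left out in turn, the log2 fold change spanned -1.28 to 0.66 for Flrt1, -0.32 to 0.26 for Adgrl1, 0.16 (without Ythdf2-/- replicate 3) to 0.97 for Adgrl2, 0.035 (without wild-type replicate 1) to 0.75 for Adgrl3, -1.96 to 0.96 for Tenm2, -0.041 to 0.39 for Tenm3 and -0.043 to 0.89 for Tenm4. With the Y-linked term Adgrl2 was at 1.115. The causes were not tested.

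Genes past an adjusted p of 0.05 numbered 0 in the fit reported, 1 with other size factors, 1 without a filter, 1 with at least 10 counts in every library, 88 with DESeq2, 151 with quality weights, 13 with the Y-linked term and 0 to 2 when a library was left out (2 without wild-type replicate 3). Of the 16 other partners, 1 (Unc5b) was called by DESeq2 and 1 (Unc5b) with quality weights, and 0 otherwise. Replicate numbers did not pair the cultures: deviations of same-numbered libraries correlated at -0.25, -0.24 and -0.39. With the replicate block 0 genes and 0 partners were called, and the partners' median log2 fold change was 0.17. Leave-one-out family totals (mean of all libraries, CPM per kb) were 10.2 to 12.4 for Flrt, 43.2 to 49.8 for latrophilins and 5.65 to 7.004 for teneurins. Genes with few reads, such as Flrt1 and Tenm2 at 26 to 84 reads in 5 libraries, limit what these depths can show.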

Other observations

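The upstream segments of the other genes, 250 bases each, spanned a wide range of base composition. The first Adgrl3 segment held 36 CG dinucleotides and was 76.8% GC, and the Adgrl1 segment held 21 with 68.8% GC. The Tenm1 segment had 0 CG dinucleotides, 27.2% GC and 3 matches to TATAAA, and the Tenm2 segment had 2 CG dinucleotides with 37.2% GC. Whether transcription starts at these annotated positions was not checked, so the segments need not be promoters. Teneurin genes spanned 449.0 to 937.6 kb and Adgrl3 spanned 804.6 kb, against 41.9 kb for Adgrl1, 139.1 kb for Adgrl2 and 13.7, 93.0 and 13.3 kb for Flrt1, Flrt2 and Flrt3. These are features of the annotation, and their relation to the levels was not tested.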
